A study of Mus musculus with 7 samples.

Results

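Genes of milk protein and milk secretion, 10 in all, were examined in sorted mouse mammary cells measured on Affymetrix arrays. The genes were listed by name: the caseins Csn1s1, Csn1s2a, Csn1s2b, Csn2 and Csn3, the whey genes Wap and Lalba, Glycam1, and the fat globule genes Mfge8 and Xdh. Of these 10 genes, 9 had a probe set annotated to them alone, out of 17096 genes measured in all, and Xdh had none in the annotation used and is not analysed here. Where a gene had several probe sets, the brightest one by its mean over the arrays was used. The question was how far these genes differ between the adult luminal and basal layers, and how far replicate arrays of 1 layer differ from each other.

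The embryonic cells (3 arrays, from 2000, 2000 and 813 cells) were high in surface CD49f and in the GFP reporter of Lgr5-IRES-GFP female embryos at embryonic day 14, and each array was a pool of 1 litter. The adult luminal cells (2 arrays) were YFP+ cells of K8CREERT2/RosaYFP mice and the adult basal cells (2 arrays) YFP+ cells of K5CREERT2/RosaYFP mice, both taken 8 weeks after tamoxifen. In these mice a Cre recombinase activated by tamoxifen, under a keratin 8 or keratin 5 driver, switches on YFP for good, so the adult samples are cells that carried the label and not whole layers. The labels mark the adult arrays as analysed again. They give neither the age nor the reproductive state of the adult mice, nor whether replicates are different animals, and the p-values therefore measure only how far these arrays spread.

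Milk is made by the luminal cells of the alveoli, which mature in pregnancy under prolactin. The hormone's receptor acts through the kinase Jak2 and the transcription factor Stat5, and together with Elf5 and the glucocorticoid receptor this switches on the casein and whey genes. Caseins leave the cell packed as micelles in secretory vesicles, fat leaves as droplets wrapped in plasma membrane, and the basal myoepithelial cells contract to expel the milk without making it.

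The deposited values are probe set intensities on a linear scale, given below as log2 intensity. The array medians were 5.05 to 5.08, and 44.0% to 46.3% of genes lay above a background level of 5.96, taken as the 95th percentile of 155 probe sets for genes that only other organs express. By their mean, 6 of the 9 milk genes lay above it, and Csn1s2b, Wap and Glycam1 below. Of 13 luminal markers, 7 passed the test described below as higher in luminal cells (2.87% of all genes), and 6 did not pass. Of 9 basal markers, 8 passed as higher in basal cells (2.63% of all genes). Luminal markers also gave signal in basal cells. Their summed intensity was 9682 and 10539 in basal replicates 1 and 2, against 17497 and 16876 in luminal replicates 1 and 2. Markers of other cell types differed too, and 4 of 10 fibroblast markers passed as higher in basal cells (2.63% of all genes). All 10 endothelial markers had both basal arrays above both luminal arrays (25.3% of all genes), though 0 passed. Of the driver keratins, Krt5 had a log2 difference, luminal minus basal, of -2.75 and passed, and Krt8 one of 0.40, which did not pass (limma adjusted p = 0.121). Embryonic columns sat close to the adult mean. Over 45033 probe sets the embryonic minus adult difference had an SD of 0.09 and the luminal minus basal difference one of 0.49, and 37.6% of probe sets had identical values in embryonic replicates 1 and 2.

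Luminal cells had more Csn1s1 than basal cells, and this was the 1 milk gene of 9 that passed the test. Across all 17096 genes 5.49% passed, by a Benjamini-Hochberg adjusted p under 0.05 and a difference of at least 2-fold in limma, with 2.87% higher in luminal and 2.63% in basal cells, so a count of 1 in 9 is not read as a property of the milk genes. The median luminal minus basal difference of the 9 genes was 0.31 on the log2 scale, against 0.02 over all genes. In 4 of the 9, Csn1s1, Csn2, Csn3 and Lalba, both luminal arrays lay above both basal arrays, as they did for 33.9% of all genes. No milk gene had both basal arrays above both luminal arrays (25.3% of all genes), and over both directions 59.2% of all genes had lineages that did not overlap. With every probe set fitted singly, 1 of the 15 milk gene probe sets passed, that of Csn1s1, as did 4.47% of all probe sets with 1 symbol. Because these are sorted bulk samples, fewer cells making a transcript and less transcript per cell cannot be told apart.

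**Figure D1:**
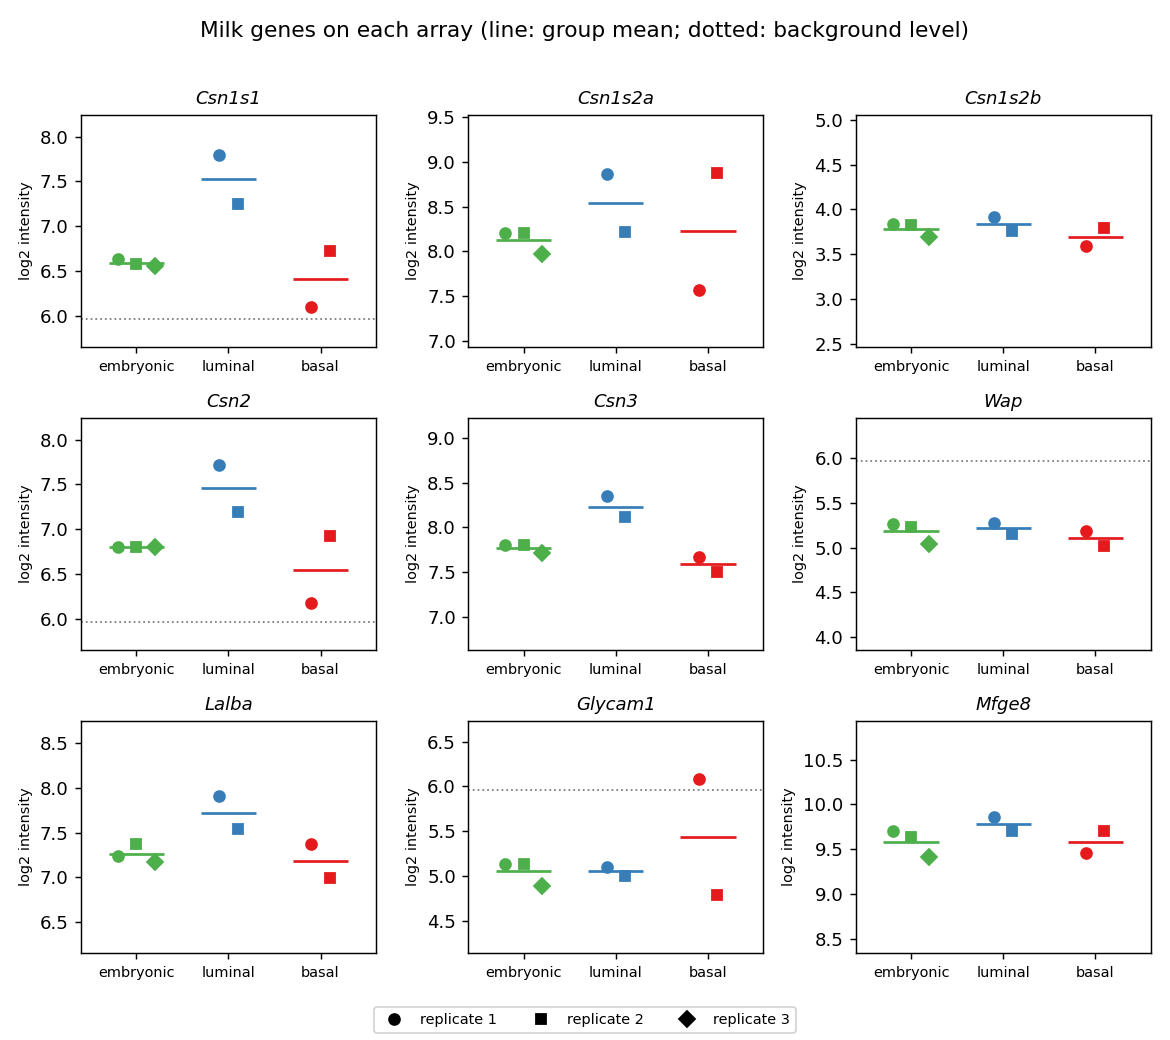
Log2 intensity (vertical axis, the same span in each panel) of the 9 measured milk genes on each array, with embryonic, luminal and basal groups along the horizontal axis, symbols for replicates, a line at each group mean and a dotted line at the background level of 5.96 where the panel reaches it. Luminal replicate 1 lies above luminal replicate 2 in all 9 panels, and basal replicate 2 of Csn1s2a lies level with luminal replicate 1.

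Csn1s1, which encodes alpha-S1 casein, a main structural protein of the micelle, had log2 intensities of 7.79 and 7.25 in luminal cells (replicates 1 and 2), against 6.10 and 6.72 in basal cells. Both luminal arrays were higher than both basal arrays, and replicate 2 of each lineage came closest to the other lineage. The difference was 1.12 ± 0.25 (SE from the fit of all 7 arrays, n = 2 luminal and 2 basal arrays), or 2.17-fold (limma adjusted p = 0.0369). That call was narrow: it was lost when any of the 4 adult arrays, or embryonic replicate 1 or 2, was left out, with adjusted p from 0.0511 to 0.184. The difference stayed positive in each of these fits, between 0.80 and 1.43. A lineage left with 1 array is assumed there to vary like the other groups. With the 4 adult arrays alone the limma adjusted p was 0.0436. Each SE, here and below, takes its spread from all 7 arrays, the embryonic ones included. For Csn1s1 the SD was 0.04 in embryonic cells, against 0.38 in luminal and 0.44 in basal cells, so the SE is smaller than the adult arrays' own spread would give.

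Csn2, the beta-casein gene, had 7.72 and 7.19 in luminal cells, against 6.17 and 6.92 in basal cells. Here too the lineages did not overlap, with basal replicate 2 the nearer to the luminal arrays. Its difference was 0.91 ± 0.27, or 1.87-fold, and missed both the 2-fold minimum and the adjusted p limit (limma adjusted p = 0.0741). The gene's 3 embryonic values, all 6.80, had an SD of 0, against 0.37 in luminal and 0.53 in basal cells, and so lowered the pooled spread of its fit. Fitted on the 4 adult arrays alone, the gene had a limma adjusted p of 0.0933. Csn2 had 3 probe sets, and they disagreed. A second one gave 1.06 ± 0.35 (limma adjusted p = 0.103 over probe sets) and the third -0.05 ± 0.36 (limma adjusted p = 0.947), with 6.96 and 6.68 in luminal cells, against 7.05 and 6.70 in basal cells. The chosen probe set has an identifier of the type Affymetrix gives to sets that can match more than 1 transcript.

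Csn1s2a, an alpha-S2-like casein once named gamma-casein, had 8.87 and 8.21 in luminal cells, against 7.57 and 8.88 in basal cells. The lineages overlapped, since basal replicate 2 matched the higher luminal array while basal replicate 1 lay below all other adult arrays. The difference was 0.31 ± 0.43 and did not pass (limma adjusted p = 0.672). Left to 1 basal array the sign depended on which: the difference was -0.34 without basal replicate 1 and 0.97 without basal replicate 2, and -0.01 without luminal replicate 1. A second Csn1s2a probe set had the same order of arrays, with 7.12 and 6.10 in luminal cells, against 5.67 and 7.17 in basal cells. The other two reached at most 2.91 on any array, far below the background level. Csn1s2b, the delta-casein gene, ran from 3.76 to 3.92 in luminal cells, against 3.59 to 3.79 in basal cells, all below background, so its difference of 0.15 ± 0.11 is one between values that were not told from background (limma adjusted p = 0.432).

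Csn3 encodes kappa-casein, which coats the micelle and keeps it in solution. Its log2 intensity was 8.35 and 8.12 in luminal cells, against 7.67 and 7.51 in basal cells. The lineages did not overlap, and each pair of replicates lay closer together than in Csn1s1, Csn2 and Csn1s2a. The difference of 0.64 ± 0.11 had an adjusted p under 0.05 (limma adjusted p = 0.0237) but was 1.56-fold, short of the 2-fold minimum, so Csn3 counts as not passing. A further Csn3 probe set lay between 2.86 and 2.94 on the adult arrays, at the floor of the table.

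The 3 caseins with the widest spread also ordered the arrays alike. Csn1s1, Csn2 and Csn1s2a were each higher in luminal replicate 1 than in luminal replicate 2, by 0.54, 0.52 and 0.66. Each was higher in basal replicate 2 than in basal replicate 1, by 0.62, 0.75 and 1.31. These are the chosen probe sets. The third Csn2 probe set, also above background, was instead higher in basal replicate 1, by 0.35. The order alone is not particular to the 3 caseins: 28.8% of all genes had it, Csn1s2b and Mfge8 among them. Because Csn1s1, Csn2 and Csn1s2a had it with wide gaps, their promoters are printed here. That of Lalba is added, as 1 of 4 milk genes whose basal arrays took the other order. The sequences are from RefSeq (GRCm38.p6), 300 bases each and 5′ to 3′ on the gene's strand, from 250 bases before the start to 50 bases from it on. Capitals mark the motif TTCNNNGAA, the core that Stat5 is known to bind, which reads the same on both strands.
Csn1s1, chr5:87665958-87666257, plus strand: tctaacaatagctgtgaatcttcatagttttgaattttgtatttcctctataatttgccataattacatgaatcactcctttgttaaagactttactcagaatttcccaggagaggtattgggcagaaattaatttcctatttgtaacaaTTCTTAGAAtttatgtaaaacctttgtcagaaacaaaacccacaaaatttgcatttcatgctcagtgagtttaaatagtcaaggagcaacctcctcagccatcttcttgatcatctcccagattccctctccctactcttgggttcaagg
Csn2, chr5:87699376-87699675, minus strand: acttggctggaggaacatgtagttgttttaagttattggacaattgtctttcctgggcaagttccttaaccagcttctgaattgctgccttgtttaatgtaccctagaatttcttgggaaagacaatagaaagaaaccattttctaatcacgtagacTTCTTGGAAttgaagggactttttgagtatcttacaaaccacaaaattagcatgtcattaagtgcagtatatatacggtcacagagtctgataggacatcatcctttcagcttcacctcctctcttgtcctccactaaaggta
Csn1s2a, chr5:87774200-87774499, plus strand: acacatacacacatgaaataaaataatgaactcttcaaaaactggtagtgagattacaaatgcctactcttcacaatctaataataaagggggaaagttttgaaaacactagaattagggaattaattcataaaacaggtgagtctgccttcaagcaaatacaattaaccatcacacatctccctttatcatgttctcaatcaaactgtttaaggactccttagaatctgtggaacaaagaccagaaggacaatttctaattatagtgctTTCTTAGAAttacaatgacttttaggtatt
Lalba, chr15:98482634-98482933, minus strand: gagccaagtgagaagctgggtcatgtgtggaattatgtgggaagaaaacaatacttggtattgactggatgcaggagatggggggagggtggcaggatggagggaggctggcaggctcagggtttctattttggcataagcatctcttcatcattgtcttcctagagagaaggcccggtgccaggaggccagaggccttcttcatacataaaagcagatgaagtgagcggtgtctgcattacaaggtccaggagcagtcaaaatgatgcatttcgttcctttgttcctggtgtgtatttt
The motif occurred once in the promoter of Csn1s1, 100 to 92 bases before the start, and once in that of Csn2, 93 to 85 bases before it. In Csn1s2a its match lay past the start, at bases 21 to 29. Of the 7 milk genes whose promoter was in the RefSeq table, 4 held a match, the other being Glycam1, and Wap, Lalba and Mfge8 held none in this window. Among all 32851 promoters in the table, 8.30% held at least 1 match. Glycam1, with a match, had its basal arrays in the other order, as Lalba did. Mfge8, without a match, had the order of the 3 caseins. These matches describe letters and were tested neither as sites nor against the order of the arrays.

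The casein genes lie next to each other on mouse chromosome 5. In the RefSeq gene order, Csn1s1, Csn2, Csn1s2a and Csn1s2b follow each other and are then separated from Csn3 by Prr27, Odam and BC037156. Prr27 lay between 3.86 and 4.23 and Odam between 2.90 and 3.24 on the adult arrays. On the flanks, the sulfotransferase genes Sult1d1 and Sult1e1, and Cabs1 and Smr3a, lay between 3.06 and 4.06. All 6 were below background on each adult array, and none of them passed the test. BC037156 had no probe set of its own and is not analysed here.

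Lalba encodes alpha-lactalbumin, which joins the galactosyltransferase B4galt1 to make lactose. It had 7.91 and 7.54 in luminal cells, against 7.37 and 6.99 in basal cells. Both luminal arrays were higher, and luminal replicate 2 lay just above basal replicate 1. Its difference, 0.54 ± 0.18 or 1.45-fold, missed both the 2-fold minimum and the adjusted p limit (limma adjusted p = 0.0949). Wap, the whey acidic protein gene of rodent milk, had 5.28 and 5.15 in luminal cells, against 5.19 and 5.02 in basal cells. All its values were under the background level, and a difference of 0.11 ± 0.12 there does not show equal expression (limma adjusted p = 0.570).

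Glycam1 encodes a mucin-like glycoprotein that is secreted into milk and is also made by high endothelial venules of lymph nodes. Its log2 intensity was 5.10 and 5.0015 in luminal cells, against 6.09 and 4.78 in basal cells. Basal replicate 1 was the 1 array of 7 above the background level, and the other 6 lay between 4.78 and 5.13. The difference was -0.38 ± 0.38 (limma adjusted p = 0.552). Its size rested on that array: it was 0.27 without basal replicate 1, and without basal replicate 2 it was -1.04 with a limma adjusted p = 0.0412. That fit holds 1 basal array, assumed to vary like the other groups, while the 2 basal arrays differed 2.47-fold, so no call is made from it. Of 4 venule markers named, the 3 measured, Chst4, Madcam1 and Fut7, lay between 3.21 and 5.47 on the adult arrays, under background. Of 10 endothelial markers, 9 were lower in basal replicate 1 than in basal replicate 2. The part of such cells in the Glycam1 values was not tested.

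Mfge8 encodes a protein of the fat globule membrane that also bridges dying cells to phagocytes. It had 9.86 and 9.70 in luminal cells, against 9.46 and 9.70 in basal cells. The values of replicate 2 of the 2 lineages were equal to 2 decimals, so the groups overlapped, and the difference was 0.20 ± 0.14 (limma adjusted p = 0.386).

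**Figure D2:**
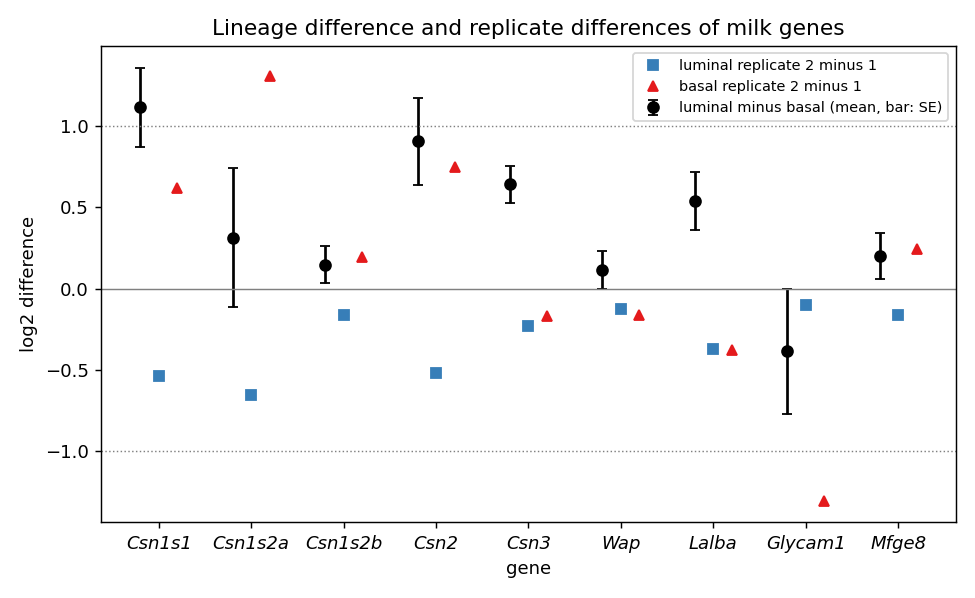
Log2 difference of the 9 milk genes: luminal minus basal mean with its SE (circles), and replicate 2 minus 1 within luminal (squares) and within basal cells (triangles), with dotted lines at 2-fold. The basal replicate difference exceeds the lineage difference in 5 genes, by most in Csn1s2a and Glycam1, while in Csn1s1, Csn2, Csn3 and Lalba the lineage difference is the larger. Of the 5, Csn1s2b, Wap and Glycam1 lie below background, and the share over all genes was not counted.

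Replicates of 1 lineage differed as much as the lineages did in several milk genes. The luminal arrays lay further apart than the lineage means in 3 of the 9 genes, Csn1s2a, Csn1s2b and Wap. The basal arrays did so in 5, those 3 with Glycam1 and Mfge8. Of these, Csn1s2b, Wap and Glycam1 lay below background, and the share over all genes was not counted. All 9 milk genes were higher in luminal replicate 1 than in luminal replicate 2, as were 52.6% of all genes, by 0.10 in Glycam1 up to 0.66 in Csn1s2a. A luminal gap as large as that of Csn1s2a was found in 2.22% of all genes, and one as large as those of Csn1s1 and Csn2 in 4.25% and 4.80%. Between the basal arrays 5 of the 9 were higher in replicate 2 (55.2% of all genes), namely the caseins Csn1s1, Csn2, Csn1s2a and Csn1s2b and Mfge8, and Csn3, Lalba, Wap and Glycam1 were higher in replicate 1. The basal gap of Csn1s2a, a 2.48-fold difference between replicates, was matched in size by 0.123% of all genes and that of Glycam1 (2.47-fold) by 0.146%.

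Several marker lists differed between the same arrays. Luminal progenitor markers had a median luminal gap of -0.73 (replicate 2 minus 1), with 4 of 6 higher in replicate 1. Among them were Aldh1a3 at 9.65 and 8.90 and the lipopolysaccharide-binding protein gene Lbp at 6.54 and 5.44 in replicates 1 and 2, while Elf5 (6.50 and 6.82) and Kit (5.32 and 5.52) took the other order. The summed intensity of the 6 was 1328 and 855 in luminal replicates 1 and 2, and 444 and 499 in basal replicates 1 and 2. Basal, fibroblast, endothelial and leukocyte markers were on balance higher in luminal replicate 2. Basal markers had a median gap of 0.43 and a summed intensity of 2118 and 2952, fibroblast markers 0.54 with 3197 and 5117, and endothelial markers 0.65 with 414 and 732, in luminal replicates 1 and 2. Leukocyte markers had a median gap of 0.34 with a summed intensity of 448 and 629, while Ptprc, their defining gene, lay between 2.73 and 3.18 on every adult array. Of 5 adipocyte markers 4 were higher in luminal replicate 1, though their sum was 198 and 293, and Adipoq lay between 3.23 and 3.74, under background. Summed luminal markers were 17497 and 16876 there. Between the basal arrays summed luminal markers were 9682 and 10539, with 10 of 13 higher in replicate 2, summed basal markers 15585 and 16813, fibroblast markers 8796 and 10571, and endothelial markers 1069 and 1631. The part of these cell types in the milk gene values was not tested.

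**Figure D3:**
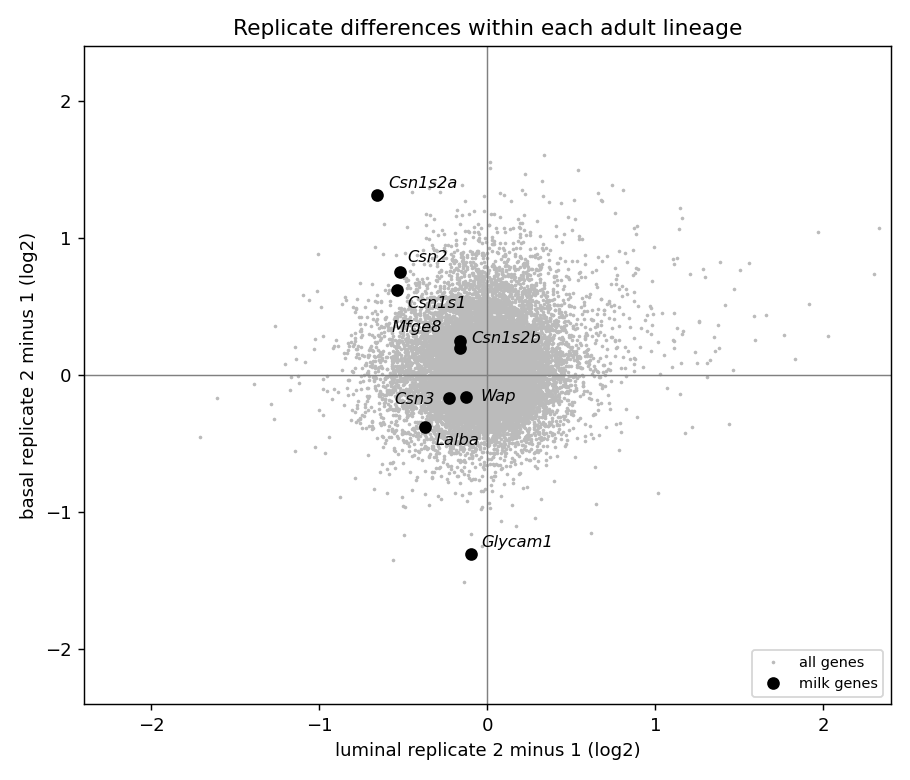
Difference between replicates within luminal cells (horizontal axis, replicate 2 minus 1, log2) against that within basal cells (vertical axis), with 1 grey point per gene and the 9 milk genes in black; 3 genes lie outside the axes. Csn1s2a, Csn2 and Csn1s1 lie at the upper left edge of the cloud, and Glycam1 near its lower edge.

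The order of the 3 caseins was common when gaps of any size were counted, in 4928 of 17096 genes (28.8%). Few genes shared it with gaps as wide as theirs. Over all genes, 36 of 17096 (0.211%) were at least 0.5 higher in luminal replicate 1 than 2 and at least 0.5 higher in basal replicate 2 than 1, and 3 of the 36 were Csn1s1, Csn2 and Csn1s2a. The limit of 0.5 was chosen after the caseins' values were seen, so this count is a description. It takes each gene by its chosen probe set, and the third Csn2 probe set did not have the order. By distance between mean-centred log2 profiles over the 4 adult arrays, the genes above background nearest to Csn1s1 were Chmp3, a gene of the membrane-remodelling ESCRT complex (distance 0.05), Slfn2 (0.08) and Atp1b1, a subunit of the sodium pump (0.09), against a spread of 1.26 for Csn1s1 itself. Chmp3 had 8.35 and 7.83 in luminal cells, against 6.70 and 7.34 in basal cells. Nearest to Csn1s2a were 4833438C02Rik (0.30), Nicn1 (0.36) and Lynx1 (0.38), against a spread of 1.08.

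In 6 lists of other milk secretion genes, 6 of 73 measured genes passed (8.22%), against 5.49% of all genes. Luminal cells were the higher in 5 and basal cells in 1, so each list held 0 to 2 calls, and no list is read as standing apart from all genes. Besides, 6 genes higher in luminal and 4 higher in basal cells had an adjusted p under 0.05 at under 2-fold. Among 18 measured genes of prolactin and Stat5 signalling, 1 passed in each direction. Elf5, the transcription factor of alveolar cells, was higher in luminal cells, at 6.50 and 6.82, against 4.92 and 5.05 in basal cells (1.68 ± 0.19, limma adjusted p = 0.00958). Both its basal values were below background, so against the background level it was at least 1.62-fold higher. Socs3, an inhibitor of cytokine signalling, was lower there, at 6.14 and 6.85 in luminal cells, against 7.58 and 8.45 in basal cells (-1.52 ± 0.37, limma adjusted p = 0.0475). Jak2 (0.56 ± 0.23) and Stat5a (0.77 ± 0.11) did not pass, Stat5a for its size alone, since its limma adjusted p = 0.0157. Size alone also held back genes in the other direction, named here after their values were seen: Nr3c1, the glucocorticoid receptor gene (-0.78 ± 0.12, limma adjusted p = 0.0172), and Cebpb, a transcription factor gene (-0.96 ± 0.16, limma adjusted p = 0.0200). The list's median was -0.05. None of these lists' medians was tested.

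Of 11 measured fat globule and lipid droplet genes, the membrane mucin gene Muc15 passed, at 6.25 and 5.71 in luminal cells, against 3.93 and 4.35 in basal cells (1.84 ± 0.24, limma adjusted p = 0.0125). Its basal values and its luminal replicate 2 were below background, and its luminal mean of 5.98 lay just above it. The size of its difference therefore rests on values not told from background. Btn1a1, the butyrophilin gene that tethers the membrane to the droplet, had 0.76 ± 0.19 and Plin2, the droplet coat gene, -0.01 ± 0.12, and neither passed. Muc15 and Btn1a1 were higher in luminal replicate 1 than 2, by 0.54 and 0.53. Of 10 other secreted milk protein genes, Wfdc18 passed, at 9.53 and 9.41 in luminal cells, against 8.15 and 8.47 in basal cells (1.16 ± 0.23, limma adjusted p = 0.0304). Ltf, the lactoferrin gene (1.09 ± 0.29), and Lpo, the lactoperoxidase gene (-0.36 ± 0.11), did not pass.

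Of 8 lactose synthesis genes, the sodium-glucose transporter gene Slc5a1 passed, at 7.35 and 6.66 in luminal cells, against 5.76 and 5.94 in basal cells (1.16 ± 0.22, limma adjusted p = 0.0257). Its basal values, too, lay below background, which leaves it at least 2.06-fold higher. B4galt1 (0.40 ± 0.15), partner of alpha-lactalbumin, and the glucose transporter gene Slc2a1 (-0.27 ± 0.12) did not pass. Of 11 ion and nutrient transport genes, the sodium-potassium-chloride cotransporter gene Slc12a2 passed, at 9.84 and 10.22 in luminal cells, against 9.05 and 8.87 in basal cells (1.07 ± 0.20, limma adjusted p = 0.0250). Atp2b1 (0.25 ± 0.20) and Atp2b2 (0.04 ± 0.10), genes of plasma membrane calcium pumps, did not pass. None of 15 secretory pathway genes passed in limma: Xbp1, a transcription factor of secretory cells, had 0.50 ± 0.11 (limma adjusted p = 0.0395, under 2-fold), and Fam20c, the kinase that phosphorylates caseins in the Golgi, -0.56 ± 0.17. The lowest adjusted p of that list belonged to Sec24d, a coat gene of vesicles leaving the endoplasmic reticulum, which was lower in luminal cells at just under 2-fold (-0.98 ± 0.10, limma adjusted p = 0.00778). The medians were 0.10 for fat globule genes, 0.38 for other milk proteins, 0.23 for lactose, 0.56 for transport and -0.02 for the secretory pathway, against 0.02 over all genes.

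**Figure D4:**
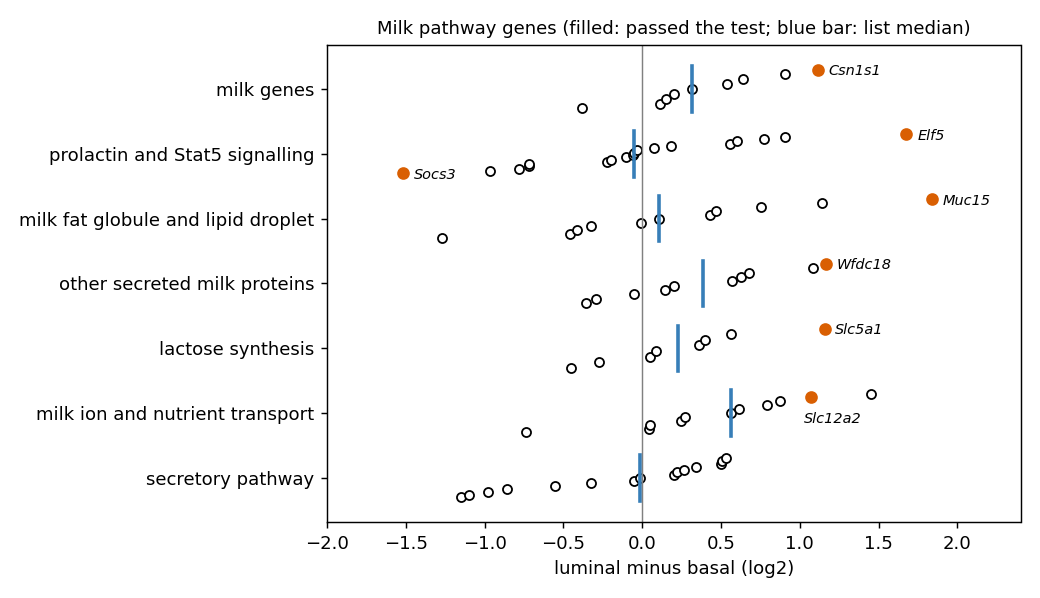
Log2 difference, luminal minus basal (horizontal axis), of each measured gene in 7 lists, with filled points for genes that passed the test and a blue bar at each list's median. At most 1 gene per list passes as higher in luminal cells, and Socs3 is the 1 gene that passes as higher in basal cells.

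In the embryonic columns all 9 milk genes had a mean inside the range of the adult arrays. Csn1s1 had 6.63, 6.57 and 6.56 in embryonic cells, against 7.79 and 7.25 in luminal and 6.10 and 6.72 in basal cells. Csn1s2a had 8.20, 8.20 and 7.98, Csn3 7.81, 7.81 and 7.72, and Lalba 7.24, 7.38 and 7.18 in embryonic cells. Values of embryonic replicates 1 and 2 were identical in 4 of the 9 genes, Csn1s2a, Csn2, Csn3 and Glycam1. Embryonic minus adult means ran from -0.38 in Csn1s1 to 0.02 in Wap, with a median of -0.19 over the 9 genes, against 0.01 over all genes. None of the 9 passed in limma against luminal cells (lowest adjusted p = 0.187, 0.0234% of all genes passed) or against basal cells (lowest adjusted p = 0.678, 0.0702% of all genes passed). An unadjusted p under 0.05 in limma was found for 4 of the 9 against luminal cells, and for 12.0% of all genes, and for 0 of the 9 against basal cells, and for 9.25% of all genes. Given how close those columns lie to the adult mean over the whole table, these values do not show whether embryonic mammary cells express milk genes.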

How the data were processed

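RNA of sorted cells was amplified by a whole transcriptome kit for Affymetrix arrays, per the labels' protocols. The authors deposited an intensity per probe set, on a linear scale, and RMA and affy were used, per the submitters' processing notes. The settings, and any adjustment of embryonic to adult arrays, are not given in the sources used here, and the protocol text of the adult samples describes the embryonic preparation. All tests used the log2 of these intensities.

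Of 45141 rows, 4 without values and 104 controls were left out. The platform annotation gave 1 symbol for 28895 probe sets, several for 551 and none for 15587, and 0 symbols changed on matching to the RefSeq gene table. Limma 3.58.1 in R 4.3.3 fitted 3 group means over all 7 arrays with eBayes (4 residual and 2.29 prior degrees of freedom), with p-values adjusted over 17096 genes. The fit was run on simulated data with independent noise on each array. The embryonic replicates share many identical values, so that run does not check the calls made here. The number of arrays limits the precision. Alternatives covered probe set choice, normalization, offset, dim genes, prior, fold minimum, arrays fitted, a replicate block and each replicate left out. Fitting each probe set singly and averaging embryonic replicates 1 and 2 were added after seeing the data. Named genes were the members, up to 4 passing genes per direction and the first 2 not passing in each pathway list, neighbours on the chromosome, and the 3 nearest profiles to the 2 members with the widest luminal gap; others named were chosen after their values were seen. The members and lists were chosen with earlier results of these data known. Plots used matplotlib 3.10.9 (Python 3.11.15).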

Additional observations from a re-analysis of the deposited data

How the results depend on the processing

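The count of milk genes passing between luminal and basal cells was 1 as reported, 0 with an offset of 16 before log2 (583 of all genes, against 939) and 2 with no fold minimum, where Csn3 joined Csn1s1 (2223 of all genes). Leaving out each replicate gave 0 to 1 milk genes and 60 to 1178 of all genes, and the 1 milk gene without basal replicate 2 was Glycam1 (-1.04), not Csn1s1. A group left with 1 array takes its spread from the others in these fits. The difference was of the other sign for Csn1s2a without luminal replicate 1 (-0.01) and without basal replicate 1 (-0.34; 0.97 without basal replicate 2), and for Glycam1 without basal replicate 1 (0.27). With the replicate number as a block, 1199 of all genes and 1 milk gene passed. The replicate gaps of luminal and basal cells correlated at 0.08 over genes, and with 2 pairs the numbers are not shown to pair the samples. Fitted without the embryonic arrays, 1165 genes and 1 milk gene passed, and 935 of the 939 were among them.

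No milk gene passed against the embryonic columns under any alternative run. Over all genes, embryonic minus luminal gave 4, and 20 with the median over probe sets, 7 with the most variable probe set, 7 with the offset, 8 with genes above background only, 182 with the replicate block, 1 with embryonic replicates 1 and 2 averaged and 1 to 217 with a replicate left out. Embryonic minus basal gave 12, and 5 with the offset, 21 with a trend in the prior, 88 with the block, 1 with replicates averaged and 0 to 89 with a replicate left out. The cause of these shifts was not tested. Levels of the 3 genes below background could not be compared, and 2 arrays per lineage limit the precision of the rest.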
